A study of Schizosaccharomyces pombe with 4 samples.

Results

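The values described here are the Upf1 over input ratios of an asynchronous culture of the fission yeast Schizosaccharomyces pombe. All 4888 genes of the deposited gene table were taken, out of 4888 in the series, and each was placed by the log2 of its ratio minus the median log2 ratio of all genes. The ratio came from 1 chromatin immunoprecipitation (ChIP) array of an untreated culture grown in rich YES medium, in which DNA bound by HA-tagged Upf1 was recovered from formaldehyde-fixed chromatin with an HA antibody. It was divided by the mean of 2 arrays of untreated input DNA. Another array of the series held Upf1 ChIP DNA of a culture in S phase, obtained with the cdc25-22 mutation by 3.5 h at 37 °C and 60 min after release at 25 °C. The tagged synchronised strain also carried ade6-704, leu1-32 and ura4-D18, and whether the asynchronous culture was of that strain is not given in the sources used here. The labels repeat the protocol of cdc25-22 arrest and release for all 4 samples, the asynchronous and input ones included, although they give the treatment of those as none. A tag in place of the native protein and 1 array per culture limit these data. There was no replicate, so no difference was tested and no value has an error.

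Upf1 is an RNA helicase that is best known for nonsense-mediated decay, the cytoplasmic pathway that destroys mRNAs on which translation stops too early. It acts there with Upf2 and Upf3. In ChIP, a protein that binds nascent RNA is recovered with the DNA of the gene being transcribed, so each gene is given beside 2 other columns of the table. These are the ratio of the Ser5-phosphorylated form of RNA polymerase II (Pol II) over its own inputs, which marks transcribed genes, and the RNA level, as the natural log of FPKM + 1. The table held no gene with an RNA level below 1.46. The paper limited its comparison with RNA to the more highly expressed genes. Statements on all genes, the median gene and the low end are therefore about listed genes only. Of 45 annotated genes of the meiosis and sporulation list, for example, 30 were in the table.

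As deposited, the Upf1 ratios ran from 0.224 to 2.14, with a median of 0.774, and 665 genes lay above 1. The spread across genes was narrow, with a standard deviation (SD) of 0.34 on the log2 scale. At least 1.5-fold above the median gene lay 251 genes, which is 5.14% of all genes, and at least 1.5-fold below it lay 164 genes, or 3.36%. The IP array was not scaled to the inputs, so the ratios have no fixed zero point and the split depends on the centring: 60.5% of these genes were high, against 91.4% (602 above and 57 below) with centring on the 25% of genes lowest in Pol II and 2.76% (31 and 1091) with none. The threshold did not fall at a gap. Just inside it on the high side were rpl3401, cut8, dpe1, rps20 and cox5, all at 0.59 and with ratios of 1.16 or 1.17, and just outside were met10, mbf1, apl4, prt2 and rps27, all at 0.58. On the low side nod1, mug151, SPBC3B8.08, SPCC622.04 and SPNCRNA.227 lay just inside at −0.59, and hpz1, pdp1, mis18, pop4 and ric8 just outside at −0.58.

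The 20 highest genes were mostly known for strong transcription. The highest was prl53, a polyadenylated non-coding RNA gene with a ratio of 2.14, or 1.47 on the centred log2 scale. It was followed by tdh1, which encodes glyceraldehyde-3-phosphate dehydrogenase, with a ratio of 2.06 and a log2 value of 1.41. Further glycolytic genes among the 20 were pgk1 (phosphoglycerate kinase) at 1.24, fba1 (aldolase) at 1.17, gpm1 (phosphoglycerate mutase) and eno101 (enolase) both at 1.16, and tpi1 (triosephosphate isomerase) at 1.10. The fermentation gene adh1, for alcohol dehydrogenase, stood at 1.11. A second set acts at the cell surface. It held knh2, annotated as a fungal cell surface protein, at 1.30, pil1, the core protein of the eisosome under the plasma membrane, at 1.24, gas2, a glucan-remodelling enzyme of the cell wall, at 1.13, and psu1, a beta-glucosidase, at 1.05. The ribosomal protein gene rps1802 had a deposited ratio of 1.85, and the log2 value was 1.11 at the transcription factor gene sfp1, and sod1 and gst2, for superoxide dismutase and a glutathione transferase, 1.11 and 1.04. The actin assembly factor gene wsp1 had 1.07 and lsb1, for an SH3 domain protein, 1.11. The other two were the uncharacterized gene SPAPB24D3.07c at 1.24 and the non-coding RNA gene SPNCRNA.570 at 1.07.

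Of these 20 genes, 19 also had a Pol II ratio above the median gene and 14 were in the top 10% of all genes for Pol II. The exception was SPAPB24D3.07c, whose Pol II ratio was −0.40 on the centred log2 scale and whose RNA level was 3.95, close to the median RNA level of 3.74. At wsp1, lsb1, gst2, SPNCRNA.570 and gas2 the Pol II ratio was positive but well below the Upf1 value, between 0.32 and 0.74. SPNCRNA.570 had an RNA level of only 1.65. Among the 20 lowest genes Pol II lay below its median at 17.

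**Figure D1:**
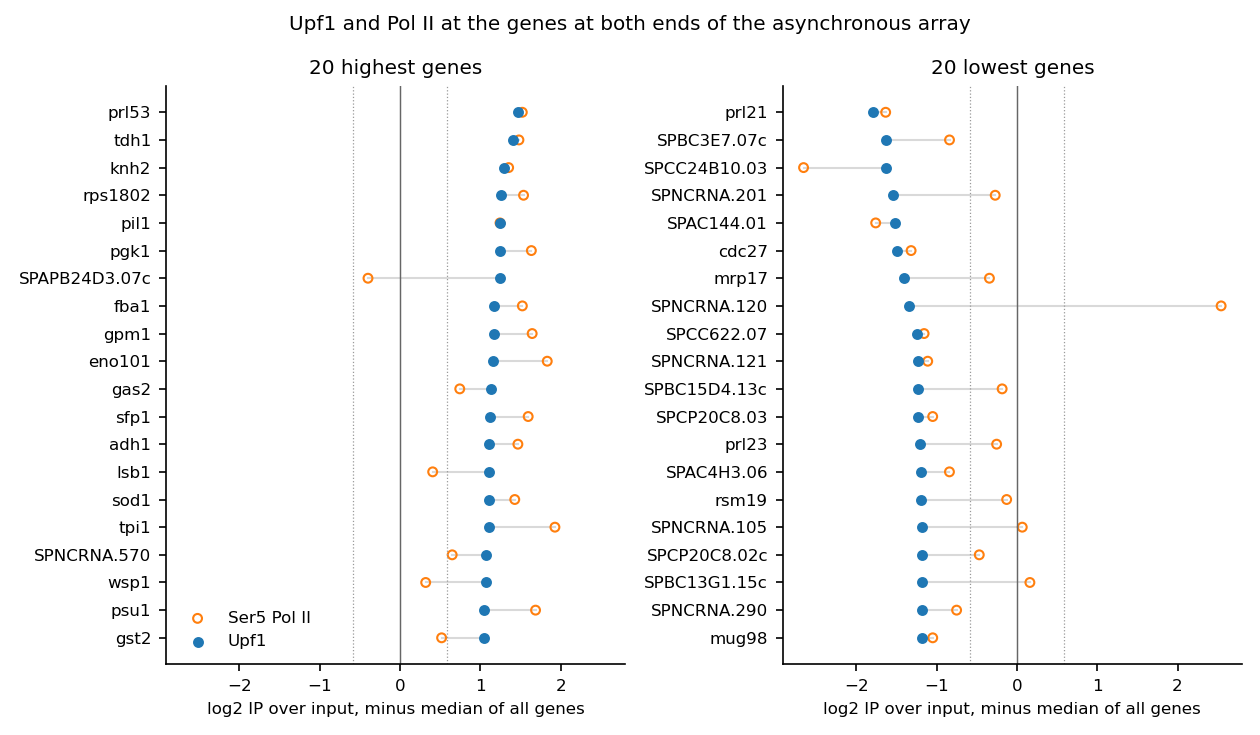
Upf1 (filled points) and Ser5 Pol II (open points) at the 20 highest and 20 lowest genes of the asynchronous Upf1 array, as log2 IP over input minus the median of all genes; dotted lines mark 1.5-fold above and below the median gene. Each point is 1 ratio with no replicate. The Pol II value lies on the opposite side of 0 from Upf1 at SPAPB24D3.07c (−0.40) among the highest genes and at SPNCRNA.120 (2.54), SPBC13G1.15c and SPNCRNA.105 among the lowest.

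Genes with high Upf1 were rich in G and C. The median GC content was 40.1% over the 251 high genes and 33.3% over the 164 low genes, against 36.8% over all 4850 genes with an annotated sequence. When the trend of the log2 ratio with GC content was subtracted, 157 genes (3.24%) lay 1.5-fold above and 61 (1.26%) below. Of these, 114 and 49 were among the original 251 and 164. That is 45.4% of the high and 29.9% of the low genes. Of the 20 highest genes 15 stayed above 1.5-fold, with prl53 at 1.51, gst2 at 1.23, sfp1 at 1.16, pil1 at 1.06 and knh2 at 1.02. The 5 that did not were pgk1 (0.57), gpm1 (0.50), adh1 (0.43), fba1 (0.41) and eno101 (0.32). Of the 20 lowest genes 19 stayed below 1.5-fold, and the remaining one, SPNCRNA.290, had no matched sequence. The part of GC content in the Upf1 ratios was not tested.

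Among the gene lists, glycolysis had the highest median. All 12 of its listed members lay above the median gene and 9 of them, or 75%, at least 1.5-fold, beside 5.14% of all genes. The list median was 1.07, with a median Pol II ratio of 1.5 and a median RNA level of 7.04. From aldolase to pyruvate kinase, encoded by pyk1 at 1.04, every listed gene but gpd3 had at least that value. The enzymes at its entry were lower, with pgi1 (glucose-6-phosphate isomerase) at 0.62, hxk2 (hexokinase) at 0.48, pfk1 (phosphofructokinase) at 0.41 and hxk1 at 0.22. With the GC trend removed the median of the list was 0.39. Then 2 members (16.7%, beside 3.24% of all genes), tdh1 at 0.73 and tpi1 at 0.67, remained above 1.5-fold.

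The paralogues tdh1 and gpd3 both encode glyceraldehyde-3-phosphate dehydrogenase. Upf1 was 1.41 at tdh1 and 0.90 at gpd3, while the Pol II ratio was 1.48 at tdh1 and −0.63 at gpd3. The RNA levels were 7.81 and 5.47. These genes are near-identical over part of their length, 69.0% of tdh1 and 51.8% of gpd3, and how far array probes read both was not tested. In ethanol fermentation, adh1 and the pyruvate decarboxylase gene pdc101 (0.82) were high, and adh4 (0.16) and adh8 (−0.02) lay near the median gene. Of the 5 hexose transporter genes ght8 had 0.85, ght5 0.76, ght2 0.41, ght1 0.33 and ght4 −0.08. The Pol II ratio was 1.72 at ght8 but 0.07 at ght5, and 65.1% and 77.6% of the length of these genes is near-identical to other sequence.

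Genes of the translation machinery followed. Of 136 genes for proteins of the cytosolic ribosome 49 were at least 1.5-fold above the median gene, and none was 1.5-fold below. The high ones were 17 of 55 for the small subunit (30.9%) and 32 of 81 for the large subunit (39.5%), beside 5.14% of all genes. The medians of the small and large subunit genes were 0.49 and 0.53. The highest, beside rps1802, was rpl2402 at 0.93, and lowest were rps2201 at 0.04 and rpl3002 at −0.07. All 8 genes for translation elongation factors were above the median gene, with a median of 0.76. They ranged from tef103, for elongation factor EF-1 alpha, at 0.95 through tef101 and tef102, both at 0.76, to tef5 at 0.47. Of these 8 genes 5 have near-identical copies. The initiation factors were lower, with a median of 0.20 over 16 genes. Only tif11, for eIF1A, at 1.02, passed 1.5-fold there (6.25%, beside 5.14% of all genes), although the median Pol II ratio of the list was 0.78. Ribosome biogenesis genes, which had a median Pol II ratio of 0.70, had a median Upf1 value of 0.13 over 29 genes, and gar2, for a nucleolar protein, was highest at 0.66.

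With the GC trend removed the medians were 0.15 for the small subunit, 0.17 for the large subunit and 0.08 for the elongation factors. Then 6, 4 and 1 of their genes (10.9%, 4.94% and 12.5%) were 1.5-fold above the median gene, beside 3.24% of all genes.

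Most ribosomal proteins of fission yeast are encoded by more than 1 gene, and such paralogues could be compared within the same array. In 51 families with at least 2 listed genes the difference between the highest and the lowest member had a median of 0.23, from 0.00 to 0.87. The widest gaps were rpp202 at 0.91 against rpp203 at 0.04, and rps1802 with a ratio of 1.85 against rps1801 with 1.04, a log2 difference of 0.83. They were followed by rpl101 at 0.72 against rpl102 at −0.02, and rpp103 at 0.79 against rpp102 at 0.07. Both rps18 genes are near-identical to other sequence over at least 50% of their length, as are members of several other families. How far array probes read more than 1 of these genes was not tested. The rpp2, rpl1 and rpp1 families hold no such genes. At rpp202 and rpp103 the Pol II ratio (1.49 and 1.49) was below that of the lower paralogue (1.78 and 1.94). In 30 of the 51 families the member with the highest Upf1 also had a higher Pol II ratio than the one with the lowest.

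**Figure D2:**
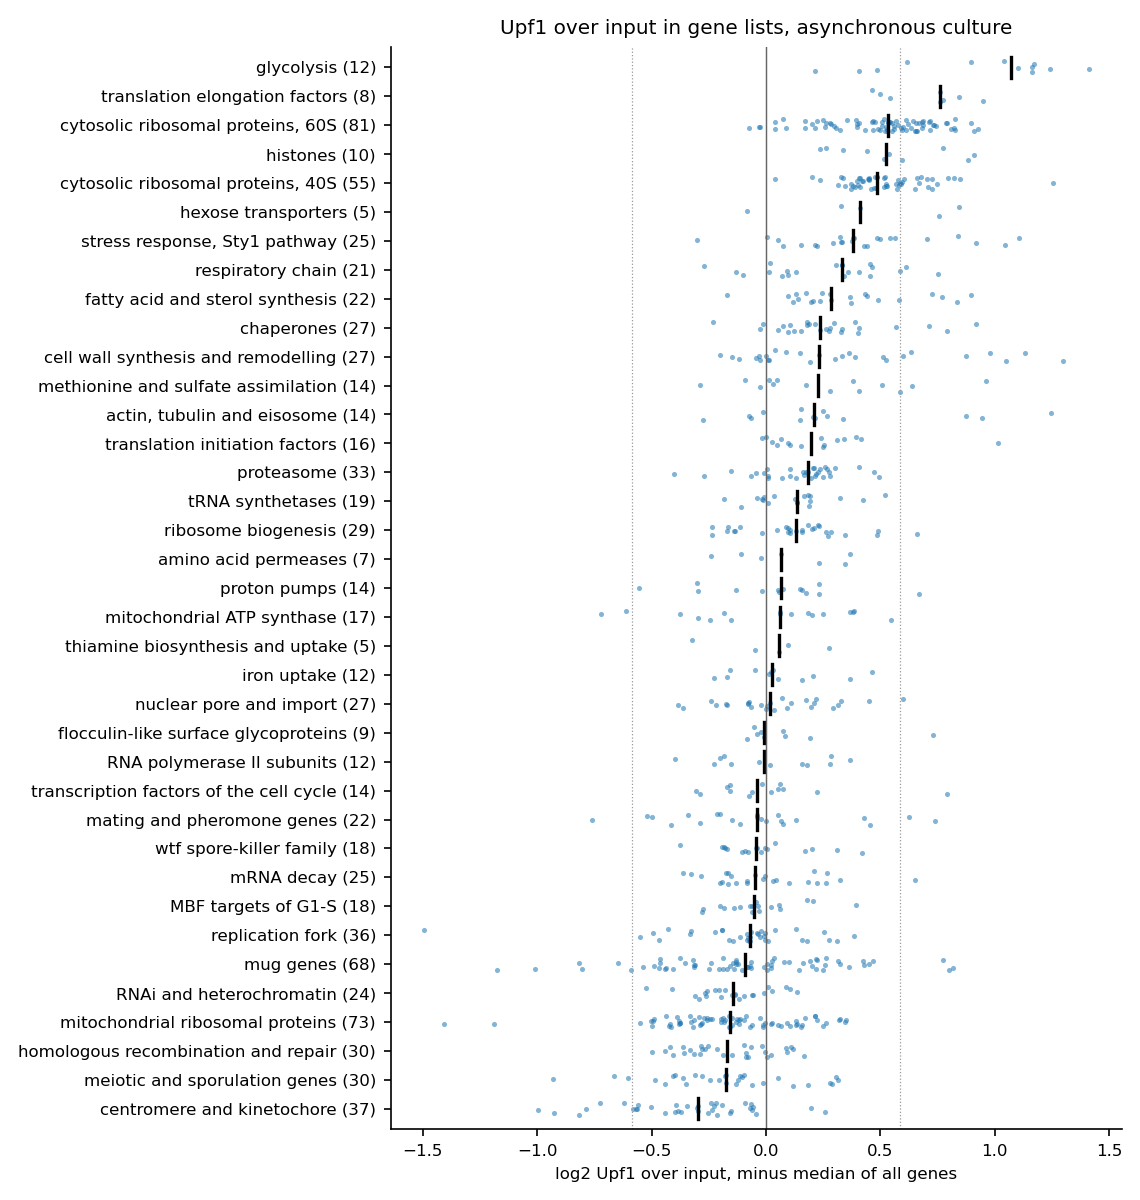
Upf1 over input in the gene lists with at least 5 listed genes, 1 point a gene (number of genes in parentheses) and a bar at the list median, as log2 ratio minus the median of all genes; dotted lines mark 1.5-fold. Glycolysis (median 1.07), elongation factors (0.76), histones (0.53) and ribosomal proteins (0.53 and 0.49) stand at the top and centromere and kinetochore genes (−0.30) at the bottom.

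Because the medians of the ribosomal protein genes were high, the promoters were searched for the HomolD box (CAGTCACA), the core promoter element of these genes in fission yeast. Promoters were the 250 bases before and 50 after the start of each gene in the RefSeq annotation of assembly ASM294v3, for 4730 protein-coding genes, and both strands were read. The box was present in 63.2% of the ribosomal protein genes and in 2.85% of all promoters. It was in 17.4% of the high protein-coding genes and in 5.91% of those that are not ribosomal protein genes, a share below the 7.62% of the non-ribosomal genes in the top 10% for Pol II. Within the ribosomal protein genes the median Upf1 value was 0.52 with the box and 0.53 without it. The windows below are read on the strand of the gene, with the box in capitals in either orientation, and are shown because these are among the highest genes that hold it. In the order given, the windows lie at chrIII:1033510-1033539 (−), chrIII:939844-939873 (+), chrI:1823466-1823495 (−), chrII:627563-627592 (−), chrII:1558676-1558705 (−) and chrI:4861299-4861328 (−).
rps1802: tagccaaagagCAGTCACAaagtcaacaca
tpi1: ccccttaactgTGTGACTGtccgctacgtt
psu1: ccgtgacgcgtTGTGACTGcttccgcgata
tef103: aacgaacgttaTGTGACTGctttttttgcg
rpl26: agcaaaatcagTGTGACTGtcaactgtcac
btf3: aagtatgggagCAGTCACAcatttcggtac

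In each of these 6 promoters the box began between 47 and 59 bases before the annotated start of the gene. Besides rps1802 they belong to tpi1, psu1 and tef103, described above, to the large-subunit gene rpl26 and to btf3, for a subunit of the nascent polypeptide-associated complex. The last pair was named for the box and not for rank.

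The same promoters were searched for the core of the cyclic AMP response element (TGACGT), which the transcription factor Atf1 binds downstream of the kinase Sty1. It was in 5.79% of all promoters, in 16.7% of the high protein-coding genes outside the ribosome and in 6.82% of the low genes. In the non-ribosomal genes of the top 10% for Pol II it was in 9.97%. None of the TGACGT sites shared a base with a HomolD box. Also searched were the HomolE core (CCCTACCC), TATA box (TATAAA), MCB element (ACGCGT) and CCAAT box. They were in 8.09%, 36.2%, 3.40% and 41.3% of the high protein-coding genes, beside 1.67%, 48.3%, 3.26% and 42.1% of all promoters. In the low genes they were in 0%, 58.3%, 0.758% and 40.2%. Outside the ribosome the HomolE core was in 0.538% of the high genes. The highest genes with a TGACGT core were knh2, pil1 and fba1, and the histone gene htb1 and rds1, of the stress list, held it too. Other genes that rank between fba1 and rds1 also held it. The site of htb1 lies in the promoter window of its neighbour hta1 as well. The share of the stress list with the core is not given here. At fba1 the core continues into its own reverse complement, so it matched on both strands. The windows lie at chrIII:1309540-1309569 (+), chrIII:348386-348415 (+), chrII:1688163-1688192 (+), chrIII:1412258-1412287 (+) and chrI:1667623-1667652 (+), with the core in capitals in either orientation.
knh2: caaaaattgccaTGACGTgaagagacagtt
pil1: tcgcgaatgggaACGTCAtgtttacgtgat
fba1: aaaaacttctttTGACGTcaacccctaaaa
htb1: cgttcttgtagaTGACGTttccgcgtcgca
rds1: gtaccaagtcacACGTCAagctgagaccga

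The list of stress genes of the Sty1 pathway had a median of 0.38 over 25 genes, and 24 of them lay above the median gene. At least 1.5-fold were 5 (20%), beside 5.14% of all genes, of which sod1 at 1.11 was the highest, and trx2, for a thioredoxin, was the lowest at −0.30. With the GC trend removed the median was 0.25 and 3 genes (12%) passed, beside 3.24% of all genes. Chaperone genes had a median of 0.24 over 27 genes. The highest of them was hsp9, for a heat shock protein of the plasma membrane, at 0.92, with a Pol II ratio of −0.46, and the lowest was aha1 at −0.23, with a Pol II ratio of 0.81.

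All 10 histone genes lay above the median gene, with a median of 0.53, and 4 (40%) at least 1.5-fold, beside 5.14% of all genes. The order was htb1 (H2B) at 0.91, hht2 (H3) at 0.89, hht3 (H3) at 0.78, hta1 (H2A) at 0.59, hhf2 (H4) at 0.54, hta2 (H2A) at 0.52, hhf3 (H4) at 0.44, pht1, the H2A variant, at 0.34, hht1 (H3) at 0.26 and hhf1 (H4) at 0.24. At the H3 genes hht1 and hht2 the Pol II ratios were 0.26 and 1.83 while their RNA levels were 6.24 and 6.23. The median GC content of this list was 38.4%, against 36.8% over all genes. With the GC trend removed its median was 0.47 and 2 of its genes (20%) passed 1.5-fold, beside 3.24% of all genes.

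Genes of the cell wall were uneven. The list median over 27 genes was 0.23, yet 7 genes (25.9%, beside 5.14% of all genes) passed 1.5-fold, with knh2 at 1.30, gas2 at 1.13 and psu1 at 1.05, while 6 lay below the median gene, down to exg2, for a glucanase, at −0.20. Of 22 genes for the synthesis of fatty acids and sterols 21 lay above the median gene and 4 (18.2%) at least 1.5-fold. Their median was 0.28. They ranged from erg1, for squalene monooxygenase, at 0.89 to erg27 at −0.17. The respiratory chain had a median of 0.33 over 21 genes, from cyc1, for cytochrome c, at 0.75 to qcr6 at −0.27. The proteasome had a median of 0.18 over 33 genes, with no gene past 1.5-fold on either side.

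Some genes were high in Upf1 and low in Pol II. Of the 100 highest genes 86 had a Pol II ratio above the median gene and 14 below it. The lowest Pol II ratio among them was −2.03 at tlh2, a RecQ-type helicase gene next to a telomere, with a Upf1 value of 0.89 and an RNA level of 2.51. This gene is near-identical to other sequence over 94.1% of its length. The pseudogene SPBPB21E7.08 had a Pol II ratio of −0.93 and a Upf1 value of 0.82, and SPCC63.13, for a DnaJ-type chaperone, −0.66 and 0.84. The Pol II ratio was −0.60 at rhb1, for the GTPase Rheb that acts on TOR signalling, where Upf1 was 0.95 and the RNA level was 5.18. Glycerol dehydrogenase, encoded by gld1, had −0.49 in Pol II, 0.87 in Upf1 and a low RNA level of 1.83. The uncharacterized gene SPBC19C7.04c had −0.45 and 1.01. The non-coding genes SPNCRNA.210 and prl24 had −0.62 and −0.47 in Pol II, and 0.88 and 0.84 in Upf1. Of these genes hsp9, rhb1 and gpd3 had RNA levels above 5, in the top 20% of the table, and the Upf1 and Pol II arrays came from different cultures.

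**Figure D3:**
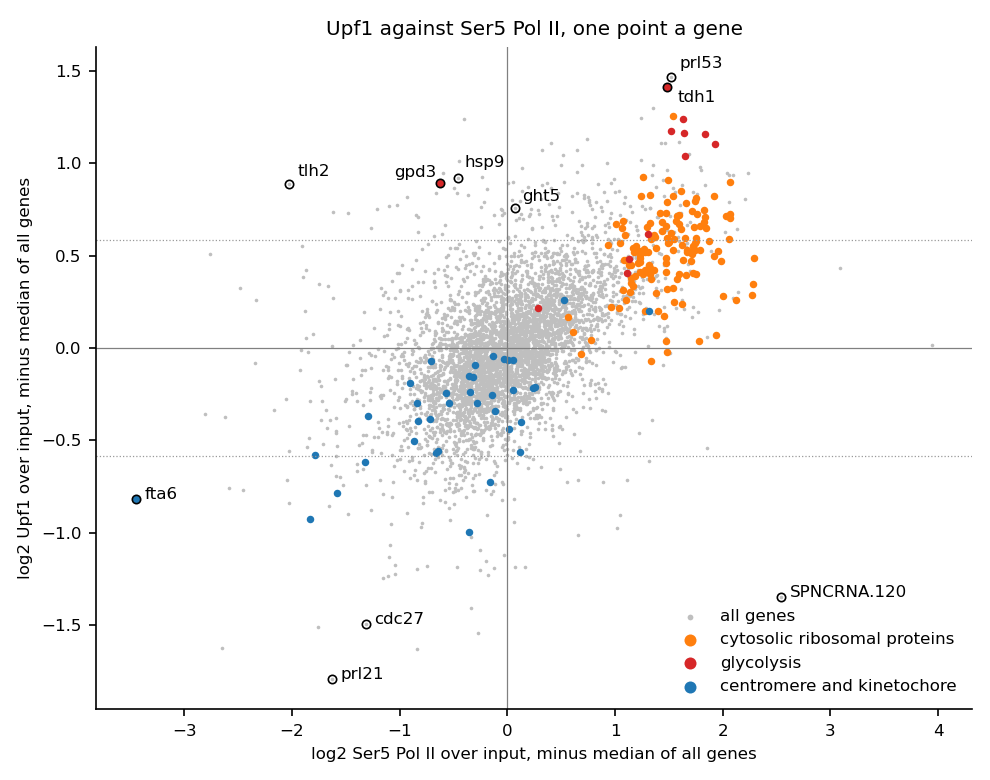
Upf1 against Ser5 Pol II for each gene, both as log2 IP over input minus the median of all genes; ribosomal protein, glycolysis and centromere and kinetochore genes are coloured and named genes are circled. The gene with the highest Pol II ratio (log2 9.04) lies beyond the axis and is not drawn. Ribosomal protein and glycolysis genes have Pol II values near 1.5, and glycolysis lies higher in Upf1; tlh2, gpd3 and hsp9 are high in Upf1 with low Pol II, and SPNCRNA.120 is low in Upf1 with a Pol II value of 2.54.

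Glycolysis and ribosomal protein genes had nearly the same median Pol II ratio, 1.5 against 1.47 and 1.49, but median Upf1 values of 1.07 against 0.49 and 0.53. The median GC content was 46.7% for glycolysis and 42.8% and 42.4% for the ribosomal lists, and median gene length was 1707 bp against 669 and 680 bp.

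The low end of the array held short, AT-rich genes with little Pol II. The lowest was prl21, a non-coding RNA gene of 270 bp, with a ratio of 0.224 and a log2 value of −1.79. Its Pol II ratio was −1.63. The uncharacterized genes SPBC3E7.07c and SPCC24B10.03 both had −1.63, with Pol II ratios of −0.84 and −2.65, and SPNCRNA.201 and SPAC144.01 followed at −1.54 and −1.51. The lowest named protein-coding gene was cdc27, for a subunit of the replicative DNA polymerase delta, at −1.49. Its GC content was 32.0%, its Pol II ratio was −1.32 and its RNA level of 3.67 was close to the median gene. The mitochondrial ribosomal protein genes mrp17 and rsm19 had −1.41 and −1.19. In all, 7 of the 20 lowest genes are non-coding RNA genes. The median length was 647 bp over these 20 genes, 1022 bp over the 164 low genes and 1802 bp over all genes.

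Non-coding RNA genes lay at both ends. Of 132 such genes 30 were 1.5-fold below the median gene, or 22.7%, and 11 were 1.5-fold above, or 8.33%. The shares over all genes were 3.36% and 5.14%. The median of the 132 genes was −0.12. Of the 164 low genes 18.3% were of this class, beside 2.70% of all genes. Among the 61 matched non-coding genes that overlap no protein-coding gene the median was −0.28, and among the 38 that do overlap one it was −0.07.

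The low gene with the most Pol II was SPNCRNA.120. This small RNA gene of 118 bp, annotated as expressed in stationary phase, had a Pol II ratio of 2.54 and an RNA level of 5.78, and a Upf1 value of −1.35. In all, Pol II lay above its median at 12 of the 100 lowest genes. Besides SPNCRNA.120 the highest Pol II ratios were 1.12 at SPAC1D4.07c, 1.05 at SPNCRNA.240, 1.01 at SPNCRNA.424 and 0.89 at SPAC959.06c, with Upf1 values of −0.71, −0.90, −0.97 and −0.72. The meiotic gene mug117 had a Pol II ratio of 0.66 and a Upf1 value of −1.01. The whole of mug117 lies within cca2 on the other strand, where Upf1 was −0.24, and SPNCRNA.240 shares 61 bases with lsk1.

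By function, genes of the centromere and kinetochore were the lowest list. Of 37 genes 35 lay below the median gene, and 6 (16.2%) lay 1.5-fold below, beside 3.36% of all genes. The list median was −0.30, the median Pol II ratio −0.35 and the median RNA level 3.10. Lowest was mis14, of the kinetochore complex that links centromeric chromatin to microtubule-binding proteins, with a ratio of 0.388, and highest was duo1, of the microtubule-binding DASH complex, at 0.26. Just outside the threshold was mis18, which is needed to load the centromeric histone, at −0.58. These genes were also poor in GC (median 35.6%), and with the GC trend removed the median was −0.18. Genes of homologous recombination and repair had a median of −0.17 over 30 genes, with none past 1.5-fold, from msh6 at 0.17 to msh3 at −0.50. Genes of meiosis and sporulation had a median of −0.17 over 30 genes, from mde6 at 0.32 to rec25 at −0.93. Of these genes 3 (10%) were past 1.5-fold below, beside 3.36% of all genes. These are the listed ones of 45 annotated genes, and their median RNA level was 2.32. The genes named mug, for meiotic upregulation, ran from mug33 at 0.82 to mug98 at −1.18. Of 68 such genes 3 (4.41%) were 1.5-fold above and 6 (8.82%) below, beside 5.14% and 3.36% of all genes.

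Mitochondrial ribosomal protein genes, a list added after the values had been seen, had a median Upf1 value of −0.16 over 73 genes and a median Pol II ratio of 0.00. None was 1.5-fold above the median gene, and mrpl27 was highest at 0.35. At least 1.5-fold below were 2 genes (2.74%), beside 3.36% of all genes. With the GC trend removed the list median was −0.05. This list stood apart from the cytosolic ribosomal proteins in all the columns, with a median RNA level of 3.92 and a GC content of 35.6%.

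The genes for mRNA decay factors, among them those of the nonsense-mediated decay pathway itself, lay near the median gene. The list of 25 had a median of −0.05 with Pol II at 0.01, from dis3, for an exosome nuclease, at 0.65 to dcp1, for the decapping cofactor, at −0.36. The gene upf1 had 0.10, and its partners upf2 and upf3, chosen after their values were seen, had −0.17 and −0.19.

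The study examined several genes individually. Of these tpi1 (1.10), met26 (0.96), act1 (0.95), ght5 (0.76) and pma1 (0.67) passed 1.5-fold. The values were 0.43 for mug106 and 0.08 for ada2, and SPBC609.01, with a ratio of 0.773, lay next to the median gene. The Pol II ratio was −0.46 at mug106, 0.22 at ada2 and −0.71 at SPBC609.01. The neighbour of mug106, gpm1, shares 30 bases with it and had 1.16 in Upf1 and 1.64 in Pol II. Within pma1, which encodes the plasma membrane proton pump, lies the antisense gene SPNCRNA.92, which shares 450 bases with it and had a higher Upf1 value of 0.94.

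Other overlaps showed how far values can differ over shared DNA, since ChIP does not tell strands apart. The highest gene, prl53, shares 333 bases with SPAC27E2.11c, which had 0.94. In contrast, gas2 shares 85.1% of its length with tri1, on the other strand, yet Upf1 was 1.13 at gas2 and 0.07 at tri1. Likewise rsm19 at −1.19 shares 42.6% of its length with loc1 at 0.28, and prl23, with a ratio of 0.337, lies wholly within otg2, with a log2 value of −0.26. Each value is a summary over the array probes assigned to that gene, and the probe positions were not used here.

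Across all genes Upf1 rose with Pol II in steps. When genes were ordered by Pol II and cut into 10 classes of equal size, the median Upf1 value went from −0.22 in the lowest class to 0.43 in the highest, and 29.7% of the genes of the top class were 1.5-fold above the median gene. The class below it had 6.95%. By RNA level the medians ran from −0.11 to 0.38, and the lowest 3 classes lay between −0.12 and −0.10. By GC content they ran from −0.30 to 0.36. Spearman's rho of Upf1 with Pol II across genes was 0.559 over all 4888 genes and 0.379, 0.484, 0.499 and 0.560 within 4 equal classes of GC content from low to high. With GC content it was 0.543 over 4850 genes and between 0.390 and 0.457 within 4 equal classes of Pol II, and GC content itself had a rho of 0.403 with Pol II. The values for Upf1 share the same array and genes are not replicates, so all of these describe the columns and carry no p-value. Within the 136 cytosolic ribosomal protein genes the rho of Upf1 with Pol II was 0.274.

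Gene length had little relation to the median but a clear one to the spread. In the shortest of 10 equal classes, up to 823 bp, the SD of the Upf1 value was 0.50, with 13.2% of genes 1.5-fold above and 10.7% below the median gene. In the longest class, from 3595 bp, it was 0.25, with 1.65% and 0.619%. The shortest class held 64 of the 251 high genes and 52 of the 164 low genes.

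Over all protein-coding genes, those with introns had lower Upf1 values. The median was 0.06 over 2390 protein-coding genes without an intron, 0.00 over 1051 with 1 intron, −0.08 over 620 with 2, −0.10 over 507 with 3 or 4 and −0.16 over 162 with 5 or more. Of protein-coding genes 49.5% have an intron, against 25.5% of the high and 68.9% of the low ones. The Pol II ratio and GC content fell along the same series, from 0.08 to −0.26 and from 37.5% to 35.1%, while the RNA level was 3.72 without introns and between 3.46 and 3.87 with them. Within the lower 50% of the genes by Pol II the median went from −0.08 without introns to −0.22 with 5 or more, and within the next 40% from 0.11 to 0.05. In the top 10% by Pol II it went from 0.44 without introns to 0.43 with 1 and 0.39 with 2. It was 0.19 over the 15 genes with 3 or 4 introns, and the 1 gene with 5 or more had 0.84. In 4 equal classes of GC content, from low to high, the medians without introns and with 5 or more were −0.16 and −0.25, −0.04 and −0.13, 0.05 and 0.05, and 0.22 and 0.16, the last over 6 genes. In the class richest in GC, genes with 1 intron had 0.26, above those without, but those with 2 had 0.16 and those with 3 or 4 had 0.11. In the class below it the medians with 1, 2 and 3 or 4 introns were 0.03, −0.02 and −0.002, and the value with 5 or more was over 23 genes. Lower values with introns were thus seen at most but not all intron numbers in these GC-rich classes. The rho of Upf1 with the number of introns was −0.235 over 4730 genes.

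**Figure D4:**
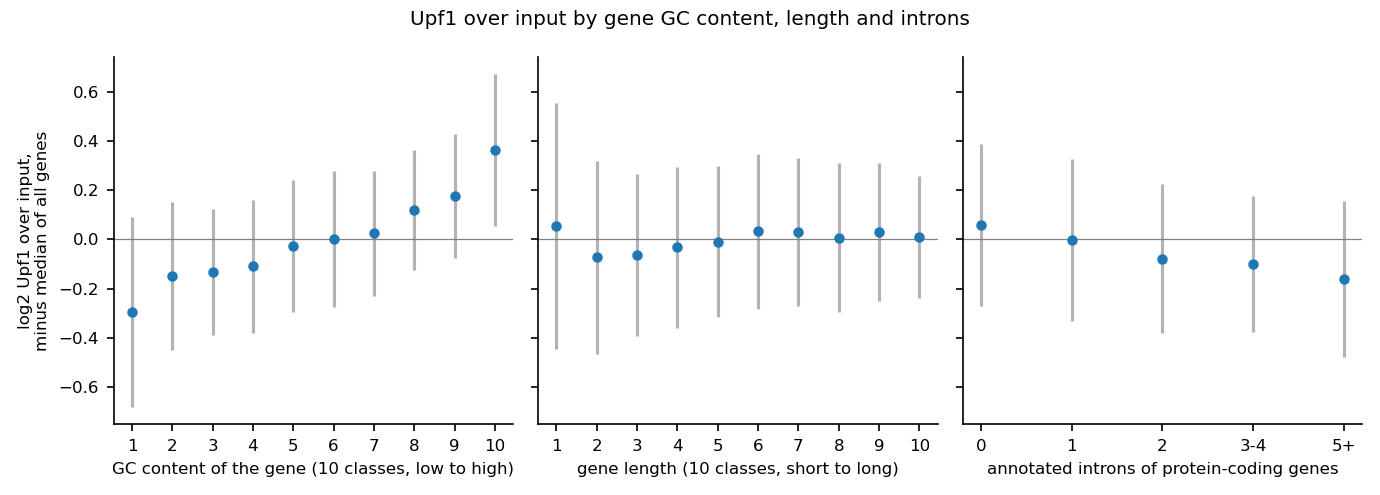
Median Upf1 over input (points) and SD across the genes of the class (bars) for 10 equal classes of GC content, 10 equal classes of gene length and classes of intron number, as log2 ratio minus the median of all genes. The median climbs from −0.30 to 0.36 with GC content and falls from 0.06 to −0.16 with introns, and the SD narrows from 0.50 to 0.25 with length.

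Neighbouring genes resembled each other. The rho between each gene and the next one listed along the chromosome was 0.249 over 4847 pairs, and 0.220 over the 3755 pairs that share no base. It was 0.117 for genes 2 places apart and 0.057 for genes 3 places apart. High genes lay side by side in 26 pairs, 3 runs of 3 and 1 run of 4, and low genes in 8 pairs, 3 runs of 3 and 1 run of 4. They held 52, 9 and 4 of the 251 high genes and 16, 9 and 4 of the 164 low genes. Overlapping genes were kept in these runs, such as pma1 and SPNCRNA.92, which share 450 bases, and prl53 and SPAC27E2.11c, which share 333. The high run of 4 on chromosome III began with pil1 (1.24), followed by duc1, SPCC594.02c and SPCC594.03 at 0.60, 0.61 and 0.61. A low run of 3 on chromosome II held SPBC15D4.11c, mug98 and SPBC15D4.13c at −0.74, −1.18 and −1.23, and another on chromosome III held SPCC622.04, SPCC622.06c and SPCC622.07 at −0.59, −1.13 and −1.24. The genes of these runs were named for their position. The low run of 4 lay at the left end of chromosome III and held SPCP20C8.02c, SPCP20C8.03, SPCC1884.01 and meu3, of which SPCP20C8.02c and SPCP20C8.03 are near-identical to other sequence over 100.0% and 99.2% of their length. By chromosome, the high genes numbered 107 of 2192 on chromosome I, 78 of 1783 on II and 60 of 875 on III, which holds 17.9% of all genes and 23.9% of the high ones.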

How the data were processed

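The authors summarised Affymetrix tiling array intensities to 1 signal per gene, brought both input arrays to the same median, took their mean, and deposited the linear ratio of IP over input signal. Of 2 asynchronous IP arrays they used the one of better quality, and the IP array was not scaled to the inputs. The deposited Pol II ratio was made likewise from published arrays. The deposited RNA level is a log of FPKM + 1 over published libraries, and its base was taken as the natural log because FPKM times length in kb then sums to 917913, against 177585 with base 2. The genome build is not given in the sources used here.

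The log2 of each ratio, less its median over 4888 genes, was used. Identifiers were matched, ignoring case, to RefSeq assembly ASM294v3 (4850 matched, 38 not), which gave names, gene class, length, GC content, introns and overlaps. Near-identical copies were genes with at least 50% of their length at 90% identity elsewhere (blastn 2.17.0). Python 3.11.15, pandas 2.3.3, scipy 1.17.1 and statsmodels 0.14.6 were used, with lowess for GC and length trends, tested on simulated data. With 1 IP array there was no test, and the number of arrays limits the precision. Genes named were the 20 highest and lowest, those nearest the threshold, those the study examined and upf1, the extremes of each list (any member of lists up to 20 genes), paralogue pairs, and genes of the 100 highest or lowest whose Pol II ratio was most opposed (up to 10 each). Genes outside this rule (overlap partners, members of runs, rpl26, btf3, rds1, upf2 and upf3) were chosen after their values were seen. The genes and 40 lists were chosen with earlier results of these data known. Alternatives were other centring, other folds, GC and length correction, and filters on genes.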

Additional observations from a re-analysis of the deposited data

Results flagged for a closer look

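A total of 3 genes named above lay at least 1.5-fold from the median gene on opposite sides in the asynchronous and the S-phase arrays, out of 7 such genes among 4888. The non-coding gene prl24 had 0.84 in the asynchronous and −2.19 in the S-phase array. The pseudogene SPCP20C8.03 had −1.23 and 0.78, and it is near-identical to other sequence over 99.2% of its length. The small RNA gene SPNCRNA.120, of 118 bp, had −1.35 and 1.51. These differences between the cultures were not tested, since each culture had 1 array.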

How the results depend on the processing

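No paired analysis was possible because the asynchronous culture had 1 IP array. The inputs could not be left out in turn, since only their mean entered the ratio. Single genes were followed through the alternatives for the 20 highest, the 20 lowest, those nearest the threshold and upf1. The genes the study examined and those most opposed in Pol II were followed too. Other named genes, such as list extremes and paralogues, were not checked in this way. No checked gene or list median past 1.5-fold changed sign under any alternative tried. For the checked genes only the GC and length corrections bear on this, since the other alternatives leave each ratio as it was and shift all genes by 1 constant. Checked genes moved by more than the spread of 0.24 in 176 of 732 values. Of these, 85 came with no centring, where a shift of 0.37 moves every gene past the spread by construction. A further 46 came with the GC trend removed and 45 with the length trend removed as well. The spread is the SD across genes of the centred difference between the asynchronous and S-phase arrays, divided by the square root of 2. It also holds true differences between the cultures. The counts of genes above and below were 602 and 57 with centring on the 25% of genes lowest in Pol II, 31 and 1091 with no centring, 157 and 61 with the GC trend removed, 158 and 69 with the length trend removed as well, and 34 and 31 over the 403 genes that overlap no annotated gene. At 2-fold they were 24 and 27, and at the lower fold tried 802 and 644. The share of high among all called genes, 60.5% as reported, was 91.4%, 2.76%, 72.0% and 69.6% under the first 4 of these. Without the 20% of genes lowest in RNA 99 genes were below, and without the shortest 10% it was 106. Without genes that overlap another protein-coding gene, an alternative chosen after seeing the data, 159 were above. Leaving out genes with a near-identical copy, also chosen after seeing the data, moved none of the counts, list medians, rho values or checked genes by more than the spread (counts by 1.5 times). A checked gene that was kept could move there only by the new centring.

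With no centring, which lowers every value by 0.37, the medians were 0.70 for glycolysis, 0.12 for fermentation, 0.39 for elongation factors, 0.12 and 0.17 for small and large ribosomal subunits, 0.16 for histones, 0.0417 for hexose transporters, −0.0849 for fatty acid and sterol synthesis, −0.0340 for the respiratory chain, −0.0107 for phosphate-responsive genes, 0.0135 for stress genes and −0.67 for kinetochore genes. With the GC trend removed they were 0.39 for glycolysis, 0.0416 for fermentation, 0.0846 for elongation factors and 0.15 and 0.17 for the ribosomal subunits, and with the length trend removed as well 0.37, 0.0401, 0.0927, 0.15 and 0.15. Without the genes lowest in RNA the medians were 0.80 for fermentation and 0.73 for hexose transporters, and without overlapping genes 0.64 for fatty acid and sterol synthesis. The rho of Upf1 with Pol II, RNA level and GC content was 0.399, 0.239 and 0.000503 with the GC trend removed, and 0.399, 0.234 and 0.00278 with both trends removed. The last of each follows from the correction itself. Without overlapping genes the rho with RNA level was 0.511. Apart from these construction effects the cause was not tested.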
